A study of Mus musculus with 6 samples.

Results

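The expression landscape of control mouse fetal liver at embryonic day E13.5 was described from 3 Illumina bead arrays of total RNA, out of the 6 arrays of the series. A gene was ranked where it had a probe with a detection p below 0.05 on all 3 control arrays, and genes were ordered by their mean normalized log2 intensity, with rank 1 the brightest. Of 28821 genes with a probe, 10834 (37.6%) met this rule. At its edge, the probe of Spg11 entered with a highest detection p of 0.0491 and a mean level of 5.32, and a probe of Pdia6 stayed out at 0.0502 and 5.51. The detection p compares a probe with negative control beads on the same array.

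The 3 control samples were single transgenic, of mixed C57/Bl6:129Sv background. Replicate 1 carried Vav-iCre, a Cre recombinase driven by regulatory sequence of the blood cell gene Vav. Replicates 2 and 3 carried R26-LSL-KITD816V, a KITD816V transgene in the ROSA26 locus whose stop cassette is removed only by Cre. No array held a liver without a transgene. The labels do not say whether an array held 1 embryo or a pool, nor whether replicates came from separate embryos, so the spread given here is that between these 3 samples and may be technical in part. Replicate 1 is also the lone array of its genotype and the first position on the chip, so genotype, embryo and position cannot be told apart.

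At this stage the liver is the main blood-forming organ of the mouse embryo. Red cell precursors mature there on macrophages, among hepatoblasts, the precursors of hepatocytes and bile duct cells, and a stroma of sinusoidal endothelium, stellate cells and mesothelium. Hepatoblasts already secrete plasma proteins, while most drug and nitrogen metabolism of the adult liver begins around and after birth. In a bulk sample, fewer cells of a type and less RNA per cell cannot be told apart.

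The arrays detected 17652, 17332 and 17842 of 45281 probes on replicates 1, 2 and 3. Over the ranked genes the median level was 8.32 and the median SD over the 3 arrays was 0.23. Replicates 2 and 3 had a median absolute difference of 0.14 per gene, against 0.33 between replicates 1 and 2 and 0.34 between replicates 1 and 3. Replicate 1 thus stood apart from the others, and values are given per array. Normalized signals could reach at most 15.27, and the brightest genes lay so close to that value that their order is not resolved. A rank reflects the probe as well as the RNA, so ranks describe which probes were bright, and no fold between genes is given.

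Genes that every growing cell uses filled much of the top of the ranking. Among the 100 brightest genes 27 encoded cytosolic ribosomal proteins, 7 were symbols of the mitochondrial genome, 6 were histone symbols and 34 were predicted genes without an established name. The mitochondrial symbols include both mtDNA_ND4 (rank 33) and mt-Nd4 (rank 40), and the histone symbols include H2af-ps2, named as a pseudogene. Blood list genes made up 9 of the 100, and liver list genes 1, the apolipoprotein gene Apoa2. Over all 10834 ranked genes the shares were 0.58% ribosomal, 0.15% mitochondrial, 0.55% histone and 15.74% predicted genes. Blood list genes made up 1.47% of them and liver list genes 0.91%, so the liver count among the 100 lies near that share. The glutathione peroxidase gene Gpx1, which protects red cells from peroxide, was rank 1 at 15.27, 15.18 and 15.15 on replicates 1, 2 and 3. The histone gene H2ac13 and the ribosomal protein gene Rps12 were ranks 2 and 3. Ferritin heavy chain, Fth1, which stores iron, was rank 4 at 15.09, 15.14 and 15.18. The tubulin gene Tuba1b, the elongation factor gene Eef1a1, the ubiquitin gene Ubb and the metallothionein gene Mt1, which binds zinc and copper, were also among the 40 brightest named genes. Atpif1, the inhibitor of the mitochondrial ATP synthase that is needed for heme synthesis, was rank 38.

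The brightest 10% of the 10834 ranked genes, or 1083 genes, began at a mean level of 11.57. They held 58 of 159 ranked blood list genes, 25 of 99 liver list genes, 3 of 73 stromal list genes and none of 6 ranked genes from lists of other tissues. In these counts blood and liver lie above the 10% over all genes and the stroma below it. A list holds genes picked as known markers, so its share describes that list and not the share of a cell type. The median percentile, where 100 is the brightest, was 76.92 for the blood lists, 71.39 for the liver lists and 44.19 for the stromal lists, while the median ranked gene lies at the middle of that scale.

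**Figure D1:**
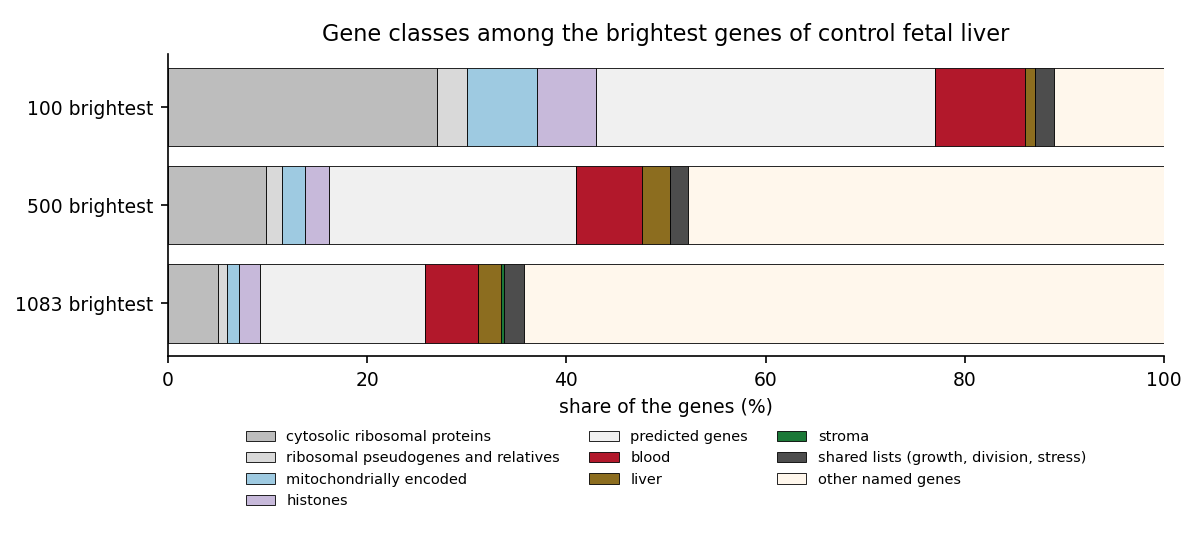
Share (%) of gene classes among the 100, 500 and 1083 brightest genes of the control arrays; each bar adds up to all of those genes. Ribosomal protein genes fall from 27% of the 100 brightest to 4.99% of the 1083 brightest. Blood list genes fall from 9% to 5.36%, while liver list genes rise from 1% to 2.31%.

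The given markers were all in the brightest 10%. Adult beta globin, Hbb-b1, part of the oxygen carrier of red cells, read 15.02, 15.00 and 14.95 on replicates 1, 2 and 3 (14.99 ± 0.04, SD, n = 3, rank 32). Slc4a1, the anion exchanger of the red cell membrane, read 14.92, 14.95 and 14.93 (14.93 ± 0.02, rank 47). Both red cell markers were flat over the arrays and close to the upper limit of the scale. The hepatoblast surface protein gene Dlk1 read 14.22, 14.79 and 14.82 (rank 102). Transthyretin, Ttr, a thyroxine and retinol carrier of plasma, read 14.41, 14.60 and 14.60 (rank 114). Alpha-fetoprotein, Afp, the fetal plasma carrier protein, read 12.81, 13.18 and 13.11 (rank 368). In these liver markers replicate 1 was the lowest array.

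**Figure D2:**
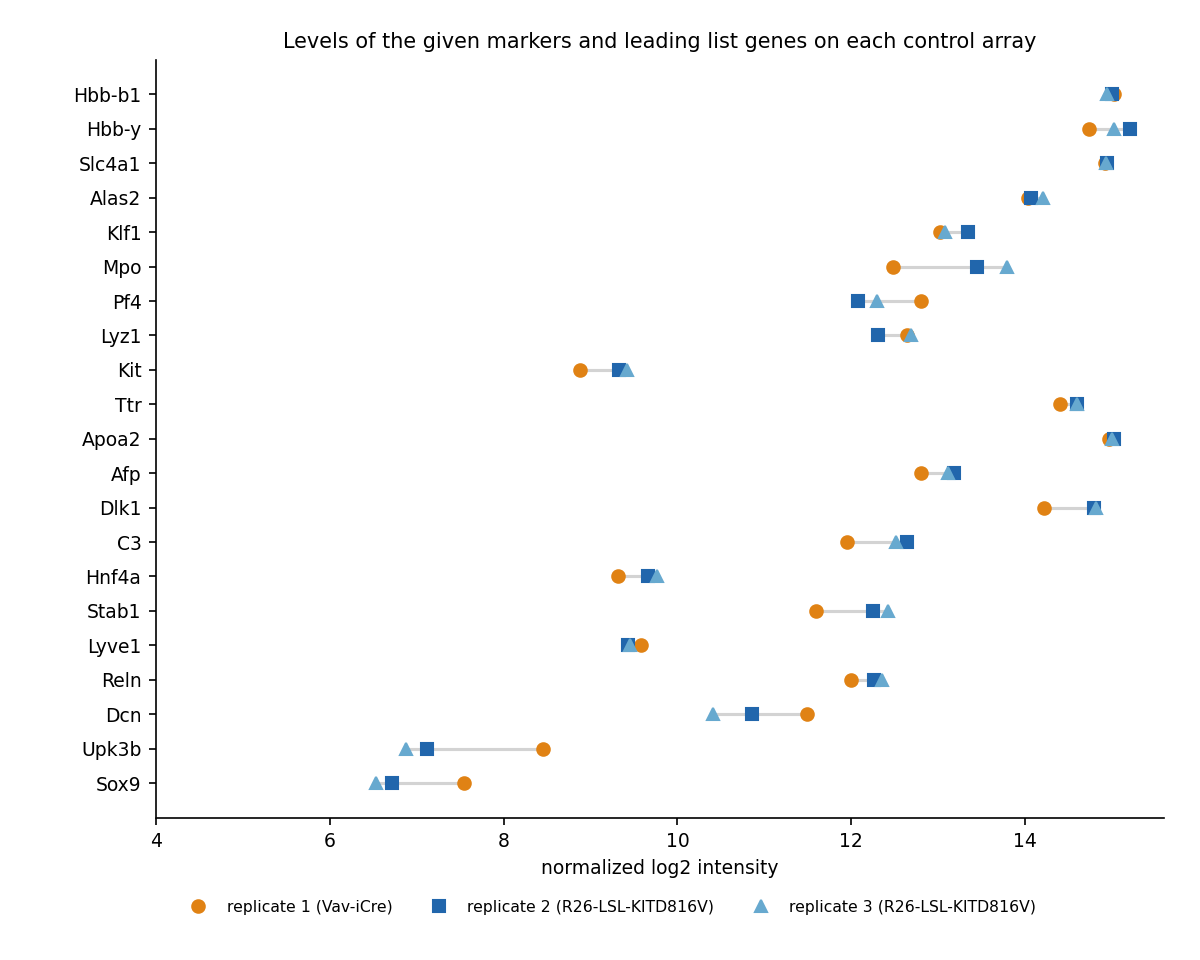
Normalized log2 intensity on each control array for the 5 given markers and leading or defining genes of other lists; each point is 1 array, and replicate 1 (Vav-iCre) is the circle. Hbb-b1 and Slc4a1 coincide on all arrays near 15, whereas Mpo, Upk3b and Sox9 show replicate 1 apart from the others.

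The start regions of 3 genes of the brightest 10% are shown to give the sequence context of the red cell and hepatoblast programs: Alas2, which begins heme synthesis in red cells, the alpha globin gene Hba-a1, and Afp. Each runs from 250 bases before to 50 bases after the gene start, 5′ to 3′ on the gene's strand, from RefSeq on GRCm38.p6. Capitals mark matches on either strand to GATAA, the core read by GATA factors, to CCNCNCCC, a box read by Klf1 and relatives, to TATAAA or to CCAAT.
Alas2 (chrX:150547167-150547466, + strand): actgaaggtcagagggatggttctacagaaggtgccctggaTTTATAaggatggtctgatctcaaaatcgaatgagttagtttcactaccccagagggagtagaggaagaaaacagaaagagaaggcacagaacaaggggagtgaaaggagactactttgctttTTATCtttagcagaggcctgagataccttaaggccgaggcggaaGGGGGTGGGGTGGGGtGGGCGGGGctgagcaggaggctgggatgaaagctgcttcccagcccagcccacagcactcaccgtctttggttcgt
Hba-a1 (chr11:32283422-32283721, + strand): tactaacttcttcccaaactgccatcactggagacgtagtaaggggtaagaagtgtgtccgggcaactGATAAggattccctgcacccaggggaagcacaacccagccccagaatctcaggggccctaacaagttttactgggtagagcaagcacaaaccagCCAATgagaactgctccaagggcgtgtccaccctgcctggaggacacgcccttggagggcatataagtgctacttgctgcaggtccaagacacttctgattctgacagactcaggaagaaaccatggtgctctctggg
Afp (chr5:90490464-90490763, + strand): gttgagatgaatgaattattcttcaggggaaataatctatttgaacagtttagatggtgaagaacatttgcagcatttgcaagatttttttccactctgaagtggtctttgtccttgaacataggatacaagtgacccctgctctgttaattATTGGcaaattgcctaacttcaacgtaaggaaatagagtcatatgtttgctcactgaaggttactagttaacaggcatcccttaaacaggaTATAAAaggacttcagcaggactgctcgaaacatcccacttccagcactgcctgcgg
The Alas2 window held a GATAA match, 4 overlapping or adjoining CCNCNCCC matches and a TATAAA match. The Hba-a1 window held GATAA and CCAAT, and the Afp window TATAAA and CCAAT. Of 27025 genes with a window in the RefSeq table, 28.43% held GATAA, 51.87% CCNCNCCC, 15.67% TATAAA and 41.06% CCAAT. Among the 7519 ranked genes with a window the shares were 20.14%, 72.04%, 9.06% and 43.22%, in that order. Such matches are common, and a match alone marks no binding site. Motif shares of the lists were not compared. Only 59 of the 85 ranked genes of the erythroid lists (69.41%) have a window, much as over all ranked genes (69.4%).

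The red cell program was the brightest of the blood lists. All 3 adult and all 3 embryonic globin genes with a probe were in the brightest 10%. The alpha globin gene Hba-a1 read 14.88, 14.92 and 15.00 (rank 46), and the minor adult beta globin gene Hbb-b2 read 11.57, 12.92 and 12.81 (rank 574). Hbb-b2 was at least 1 lower on replicate 1 than on both other arrays. The embryonic globin genes are known from primitive red cells of the yolk sac, which still circulate at this stage. Hbb-y, of the embryonic beta type, read 14.74, 15.21 and 15.02 (rank 34), the embryonic zeta-type gene Hba-x 13.55, 13.30 and 13.52 (rank 263), and Hbb-bh1 13.47, 12.92 and 13.27 (rank 314). Adult and embryonic forms were thus both bright on every array. Globin genes are close copies, and their probes may not tell them apart, while 10 of the 11 Hbb-b1 probes were detected on all 3 arrays, with means from 13.96 to 14.99.

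Heme synthesis and iron uptake had 19 of 20 genes ranked and 11 in the brightest 10%. After Fth1 its brightest members were Urod and Alad, enzymes of heme synthesis, and Alas2. Urod read 14.89, 14.65 and 14.57 (rank 87), Alad 13.83, 14.63 and 14.22 (rank 152), and Alas2 14.04, 14.07 and 14.21 (rank 168). The transferrin receptor Tfrc, through which red cell precursors take up iron, read 13.97, 13.58 and 13.64 (rank 221). The lowest member was the mitochondrial transporter Abcb10 at rank 5823, and both probes of Steap3, an endosomal iron reductase, were not above background on any control array.

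Red cell membrane and skeleton genes had 23 of 24 ranked and 14 in the brightest 10%. Sptb, the beta chain of spectrin, read 12.46, 13.48 and 13.55 (rank 331), and replicate 1 lay at least 1 below both others. The glucose transporter gene Slc2a1 was rank 374, and the lowest member, Stom, was rank 9085. The probe of Epb42, which anchors the skeleton to the membrane, was not above background on any array.

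Late erythroid maturation genes had 20 of 22 ranked and 13 in the brightest 10%. Besides Gpx1 these were led by peroxiredoxin 2, Prdx2, at 14.98, 15.10 and 15.21 (rank 9), Eraf, the chaperone of free alpha globin, at 14.98, 14.88 and 15.04 (rank 39), and the biliverdin reductase gene Blvrb (rank 146). Ypel4 was the lowest member, at 7.88, 9.02 and 8.96 (rank 4907). The erythroid factors had 17 of 18 genes ranked and 6 in the brightest 10%: Lmo2 (rank 316), Klf1 (rank 336), Nfe2 (rank 345), Ldb1 (rank 456), E2f2 (rank 851) and Tal1 (rank 954). Klf1, the activator of adult beta globin, read 13.02, 13.34 and 13.08, and Tal1, which forms a complex with Lmo2 and Ldb1, read 11.72, 11.77 and 11.78. The lowest was Myb, a factor of immature progenitors, at rank 10163.

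Stem and progenitor genes were dim in this tissue as a whole. Of 21 with a probe 13 were ranked and none was in the brightest 10%, with a median percentile of 28.16. Mllt3, a factor of stem cell upkeep, read 10.54, 10.09 and 9.58 (rank 2675). Kit, the receptor for stem cell factor, read 8.88, 9.32 and 9.42 (rank 3929), and Meis1, a homeobox factor, 9.09, 8.94 and 9.05 (rank 4221). Mecom was the lowest at rank 10736, and both probes of Flt3, a receptor of lymphoid and myeloid progenitors, were not above background.

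Neutrophil granule genes were present at uneven levels. Mpo, the peroxidase of primary granules, read 12.48, 13.45 and 13.79 (rank 310), with replicate 1 the lowest. Its 4 probes had means from 8.85 to 13.24 and all were lowest on replicate 1. Prtn3 read 10.10, 10.40 and 11.16 (rank 2032) and Ctsg, a granule protease as well, 10.25, 9.81 and 10.35 (rank 2569). In the list of later neutrophil genes, the calcium-binding protein genes S100a8 (13.40, 13.30 and 13.52, rank 269) and S100a9 (rank 679) were in the brightest 10%. The granule protein genes Ltf and Camp were ranks 2345 and 2454, and Mmp9 was rank 8869. Mean levels over the 6 ranked primary granule genes were 8.93, 9.27 and 9.65 on replicates 1, 2 and 3.

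Macrophage and monocyte genes had 20 of 25 ranked and 2 in the brightest 10%, the same share as over all genes. These were the lysozyme gene Lyz1 (12.64, 12.31 and 12.68, rank 529) and the iron exporter Slc40a1 (12.30, 12.26 and 12.27, rank 643). The lysozyme gene Lyz2 was rank 1721, and the macrophage markers Adgre1, Csf1r and C1qa were ranks 3307, 5390 and 6953. Vcam1, an adhesion molecule that holds red cell precursors on macrophages, was rank 1544, and the probe of Cd5l, a secreted macrophage protein, was not above background. Over these 20 genes the mean level differed little between arrays, at 8.89, 8.87 and 8.89. Megakaryocyte and platelet genes had 15 of 18 ranked and 2 in the brightest 10%, the platelet chemokine genes Pf4 (12.80, 12.08 and 12.30, rank 594) and Ppbp (rank 1067). Tubb1, the tubulin of platelets, read 11.97, 10.53 and 11.01, and the lowest member was Rab27b at rank 10764.

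Few lymphoid and mast cell genes were ranked. The ranked shares were 14.29% of B cell precursor, 26.67% of T and NK cell and 20% of mast cell and basophil genes. Over all genes with a probe the share was 37.59%. Detected on no control array were 7 of 14 B cell precursor genes, near the share over all genes, 15232 of 28821. For T and NK cell genes this count was 11 of 15, and for mast cell and basophil genes 7 of 10. Of the 14 B cell precursor genes with a probe 2 were ranked, Cd79b (7.79, 6.91 and 7.65, rank 6830) and Ighm (rank 8931), both of the B cell receptor. The probes of Rag1, which starts antigen receptor rearrangement, and Pax5 were not above background on any array, and that of Vpreb1 was detected on 1. Of 15 T and NK cell genes 4 were ranked. Cd8b1 was the brightest at 10.42, 10.26 and 10.45 (rank 2256), although both probes of the T cell receptor component Cd3e and those of Cd8a and Ncr1 were not above background. Of 10 mast cell and basophil genes 2 were ranked, Hdc, which makes histamine, at 9.16, 9.20 and 9.55 (rank 3786), and the protease gene Cpa3 at 7.85, 7.02 and 7.20 (rank 6979). The probe of Mcpt8 was not above background and that of Ms4a2 was detected on 1 array.

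**Figure D3:**
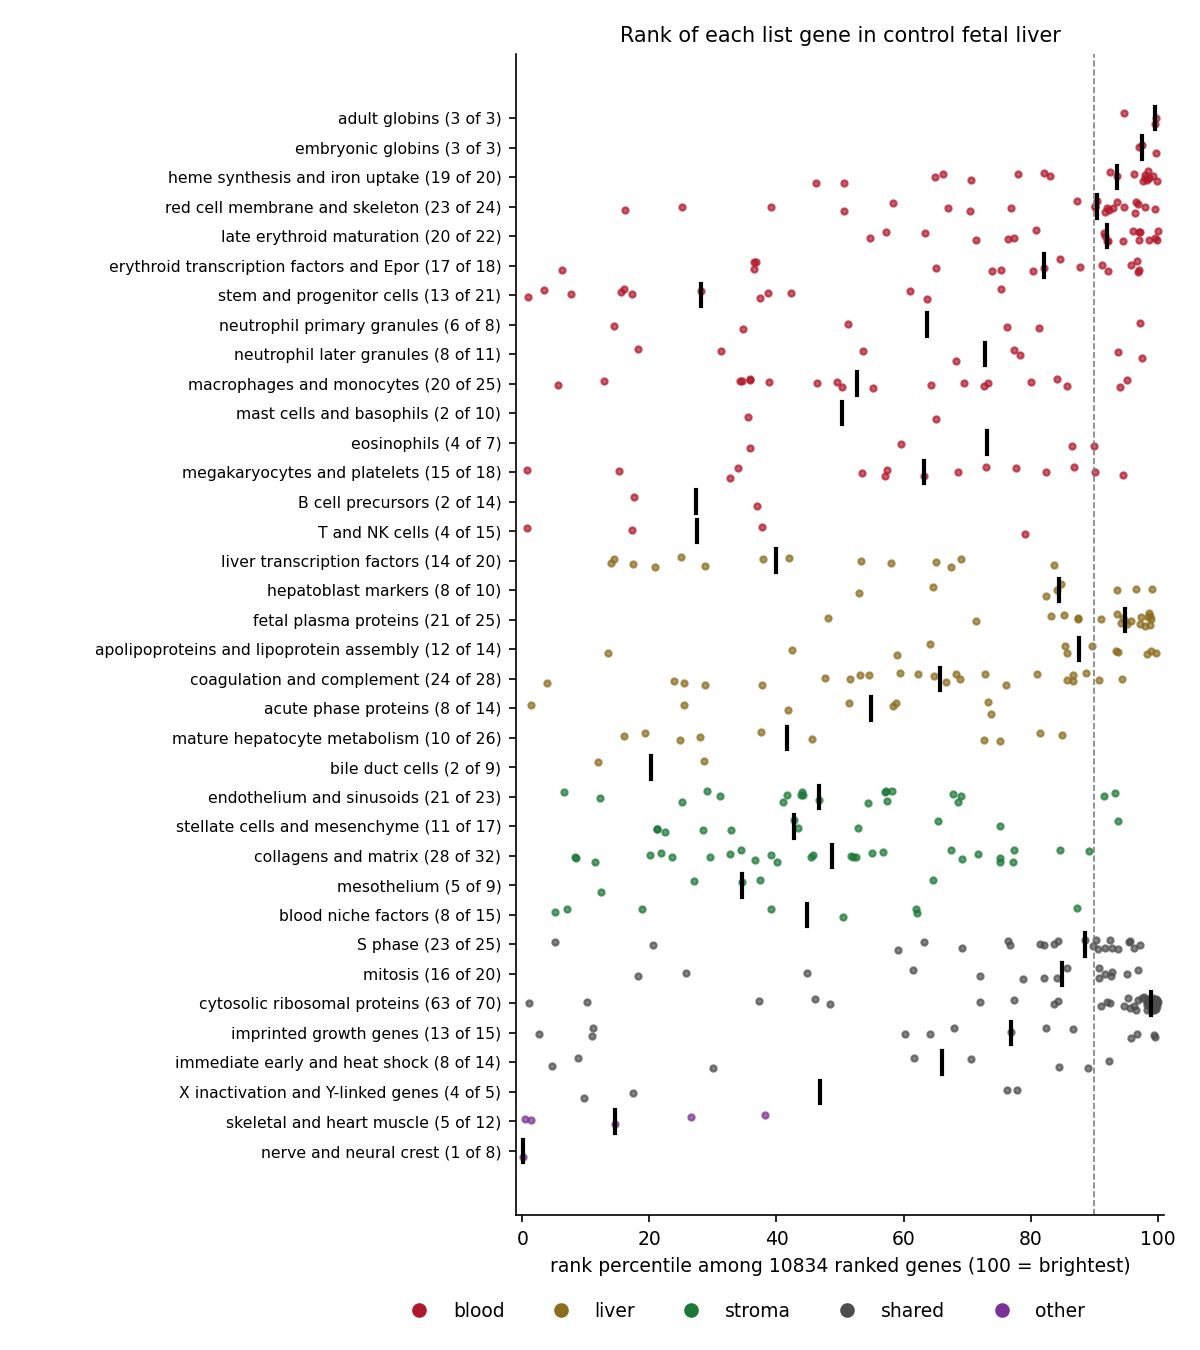
Rank percentile of each ranked gene, by list, among 10834 ranked genes (100 is the brightest); bars are list medians, the dashed line marks the brightest 10%, and the numbers give ranked genes of those with a probe. The globins, heme synthesis, red cell membrane, late maturation and fetal plasma protein lists have medians above 90, the stromal lists lie below 50, and ribosomal proteins crowd at the bright end.

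The liver program was led by secreted plasma proteins. Of 25 fetal plasma protein genes 21 were ranked and 15 were in the brightest 10%, with a median percentile of 94.79. After Ttr came Serpina1b, of the alpha-1 antitrypsin family, at 14.59, 14.33 and 14.39 (rank 127), transferrin, Trf, at 13.70, 14.71 and 14.71 (rank 133), and Ambp, precursor of a protease inhibitor and of alpha-1 microglobulin, at 13.90, 14.57 and 14.49 (rank 142). Trf lay at least 1 lower on replicate 1 than on both others. Angiotensinogen, Agt, was the lowest at 7.22, 8.71 and 8.65 (rank 5628). The single probe of albumin, Alb, was not above background on any array, with detection p of 0.318, 0.223 and 0.609, and gives no level. The Serpina1 genes are also close copies that a probe may not tell apart.

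Apolipoprotein and lipoprotein assembly genes had 12 of 14 ranked and 5 in the brightest 10%. Apoa2 and Apoa1, proteins of high-density lipoprotein, read 14.97, 15.02 and 15.00 (rank 30) and 14.44, 14.64 and 14.59 (rank 111). Apom, a carrier of sphingosine-1-phosphate, read 13.61, 14.27 and 14.27 (rank 174), and Apoc1 was rank 672. The lowest was Apoc3, an inhibitor of lipoprotein lipase, at 5.71, 6.59 and 5.87 (rank 9375). Coagulation and complement genes had 24 of 28 ranked, and 2 were in the brightest 10%, close to the share over all genes: C3, the central complement protein, at 11.95, 12.64 and 12.51 (rank 607), and Cfi, a protease that inactivates it, at rank 993. Prothrombin, F2, was rank 1222, plasminogen, Plg, rank 1449 and C9 the lowest at rank 10407.

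Hepatoblast markers had 8 of 10 ranked, all above the median of ranked genes, and 3 in the brightest 10%, Dlk1, Afp and the glypican gene Gpc3 (12.01, 12.26 and 12.27, rank 690). The growth factor gene Mdk read 11.64, 10.87 and 10.29 (rank 1641), with replicate 1 the highest, and Cdh1, the epithelial cadherin, was the lowest at rank 5098. The transcription factors of the liver were dimmer than its products: 14 of 20 were ranked and none was in the brightest 10%. Foxa3 read 10.83, 10.84 and 10.75 (rank 1772), Hnf4a, a master regulator of hepatocyte genes, 9.32, 9.66 and 9.76 (rank 3350), Cebpb was rank 3528 and Hhex rank 3784. Tbx3 was the lowest at rank 9318.

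No gene of mature hepatocyte metabolism was in the brightest 10%. Of 26 such genes 10 were ranked (38.46%), close to the 37.59% over all genes with a probe. Not above background on any array were 11, beside 15232 of 28821 over all genes. Among these 11 were Cyp7a1, Cyp2e1, Cyp3a11, Tat and Pck1, enzymes of bile acid, drug, tyrosine and glucose metabolism. Among the brightest were Fah, of tyrosine breakdown, at 10.25, 10.76 and 10.74 (rank 2004), and Ass1, of the urea cycle, at 9.12, 10.26 and 10.14 (rank 2971). Abcb11, the bile salt export pump, was the lowest at rank 9106. Of 14 acute phase genes 8 were ranked (57.14%), led by Itih4 (9.23, 10.32 and 10.25, rank 2841) and Crp (rank 2902). Hamp, the iron hormone hepcidin, read 5.63, 7.29 and 7.31 (rank 8077), and Saa3 was the lowest at rank 10683. Bile duct genes had 2 of 9 ranked, Sox9 at 7.54, 6.71 and 6.53 (rank 7735) and Krt7 at 6.33, 6.07 and 5.52 (rank 9553), while the probes of Krt19 and Epcam were not above background.

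The stromal lists were widely detected at middle levels. Endothelial and sinusoidal genes had 21 of 23 ranked and 2 in the brightest 10%: Stab1, a scavenger receptor of sinusoidal endothelium and of some macrophages, at 11.60, 12.25 and 12.42 (rank 727), and Egfl7, secreted by endothelium, at 11.62, 11.89 and 11.92 (rank 911). Lyve1, a hyaluronan receptor of fetal sinusoids, read 9.59, 9.43 and 9.45 (rank 3495), Esam, a junction protein, was rank 3361, Ramp2 rank 3409 and Fcgr2b the lowest at rank 10127. Both probes of the VEGF receptor gene Kdr were not above background on any array. Stellate cell and mesenchyme genes had 11 of 17 ranked. Reln, which encodes the secreted protein reelin, was the only one in the brightest 10%, at 12.26 and 12.35 on replicates 2 and 3, a little lower on replicate 1, with a mean of 12.20 ± 0.18 (SD, n = 3, rank 677). Of its 5 probes 1 gave that value, 1 had a mean of 5.60 and the others were not above background. Acta2, the actin of contractile cells, read 10.60, 9.94 and 9.61 (rank 2696), and the hepatocyte growth factor gene Hgf was the lowest at rank 8544. The probe of Lrat, which stores retinol in stellate cells, was not above background.

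Of 32 collagen and matrix genes 28 were ranked and none was in the brightest 10%. Col18a1, a basement membrane collagen, read 10.66, 11.96 and 11.79 (rank 1173), and decorin, Dcn, 11.49, 10.85 and 10.41 (rank 1659), so that replicate 1 was the lowest for one and the highest for the other. Sparc was rank 2450, Bgn rank 2464, and Col1a2, a chain of fibrillar collagen I, the lowest at 6.57, 5.38 and 5.35 (rank 9946). Blood niche factors had 8 of 15 ranked: the chemokine gene Cxcl12 read 11.28, 11.34 and 11.04 (rank 1371), Tgfb1 was rank 4103, Vegfa rank 4123, and Kitl, the ligand of Kit, rank 8801. Bmp4 was the lowest at rank 10277, and the probe of Epo, the red cell growth factor, was not above background.

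Genes of cell division and fetal growth had many bright members, though each list also held dim ones. S phase genes had 23 of 25 ranked and 10 in the brightest 10%, led by Mcm5 and Mcm4 of the replication helicase (ranks 299 and 398), Uhrf1 (rank 468) and Fen1 (rank 484). Mcm5 read 13.14, 13.35 and 13.33. Mitosis genes had 16 of 20 ranked and 7 in the brightest 10%, led by Mki67 at 13.27, 13.15 and 13.06 (rank 333) and Birc5, of the chromosomal passenger complex (rank 531). Imprinted growth genes had 13 of 15 ranked and 4 in the brightest 10%. Of these, H19 read 14.82, 14.95 and 14.95 (rank 52) and Igf2, a fetal growth factor, 14.66, 15.00 and 14.96 (rank 59). The others were Cdkn1c (rank 359) and Grb10 (rank 459). Peg10 was the lowest at rank 10554, and Plagl1 and Sgce were not above background on any array. Ribosomal protein genes had 63 of 70 ranked and 54 in the brightest 10%. Their range nevertheless reached rank 9734 for Rps18 and 10720 for Rpsa, each read by 1 kept probe. Of the 14 immediate early and heat shock genes 8 were ranked, led by the co-chaperone gene Dnajb1 (rank 825), and Fos was the lowest at rank 10333.

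Genes of neighbouring organs, apart from muscle, were rarely ranked. Over all genes with a probe 37.59% were ranked. No gene of 9 for gut and pancreas or of 10 for lung, kidney, adrenal and skin was ranked, and the probes of Cdx2, Pdx1 and Ptf1a were not above background. Of 8 nerve and neural crest genes 1 was ranked, and Sox10, Tubb3 and Stmn2 were not above background. Of 12 muscle genes 5 were ranked (41.67%). Actc1 and Acta1 were high on replicate 2 and Myl7 on replicate 1, while Ttn (rank 10684) and Ryr1 (rank 10788) were dim on every array.

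With predicted genes left out, the 10 ranked genes with the largest SD fell mostly into a pair of groups, each tied to 1 array. Eosinophil genes were low on replicate 1. The granule protein gene Prg2, which is not among the 10, read 10.14, 12.08 and 12.48. The eosinophil ribonuclease genes read 9.56, 11.74 and 12.13 for Ear2 and 6.82, 9.84 and 10.14 for Ear6. Ear3 (8.51, 11.23 and 11.52) and Ear4 (7.45, 10.46 and 10.96) had the same order. The Ear genes are close copies, so their probes may read the same RNA. The probe of the eosinophil peroxidase gene Epx was detected on replicates 2 and 3 but not on replicate 1. Erdr1, in the pseudoautosomal region, was also low on replicate 1, at 10.74, 12.90 and 13.26.

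Muscle genes were high on replicate 2. The actin gene Actc1 read 6.55, 9.31 and 6.73, and Acta1, the actin of skeletal muscle, 5.59, 8.47 and 6.35. The myosin light chain genes Myl1 (6.61, 10.03 and 7.37) and Myl4 (6.36, 8.71 and 6.56) and the alpha-actinin gene Actn2 (5.59, 8.47 and 6.02) followed the same order. Myog, the factor of differentiating skeletal muscle, was detected on 2 of the 3 arrays, Myod1 on none and Myh6, of heart, on none. Myl7, an atrial myosin light chain, was instead high on replicate 1, at 7.46, 5.47 and 5.42.

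**Figure D4:**
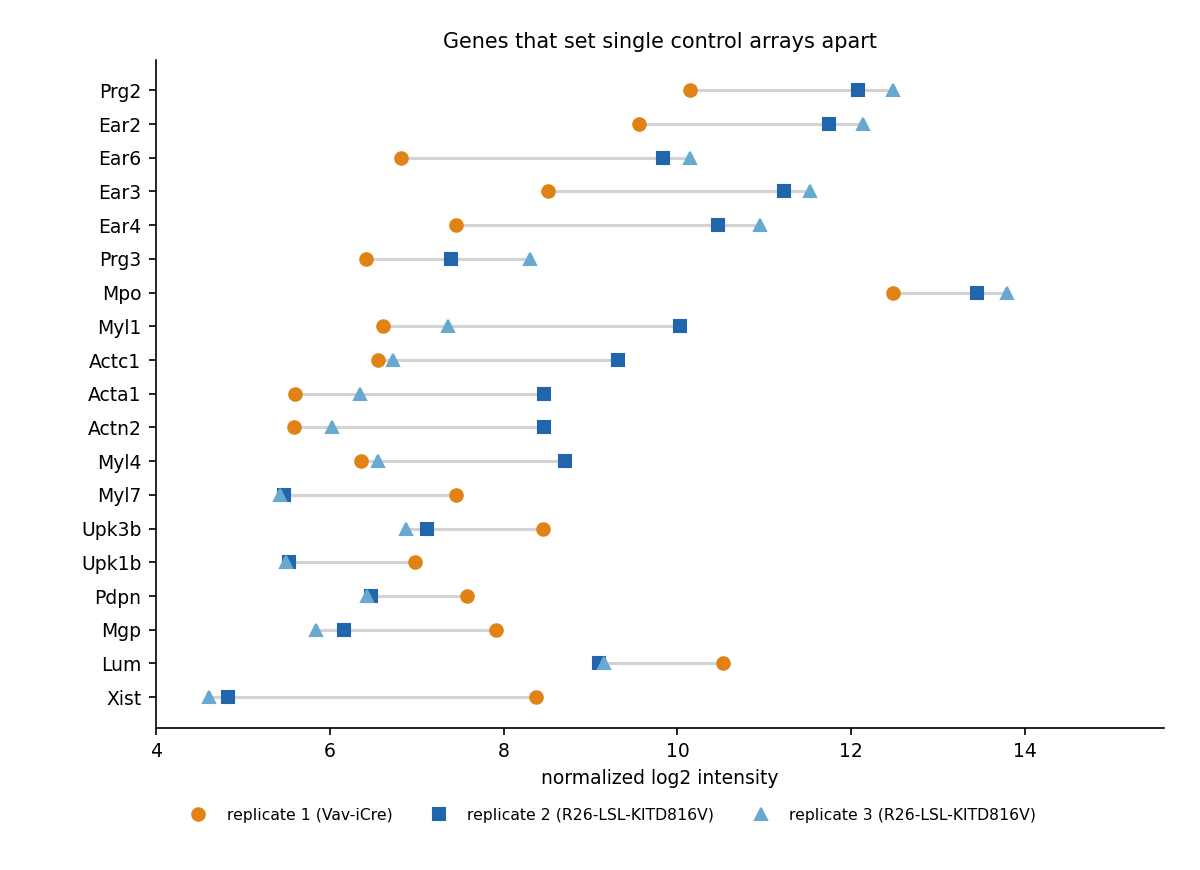
Normalized log2 intensity on each control array for genes in which 1 array stood apart; each point is 1 array. The eosinophil genes are low on replicate 1, Myl1, Actc1, Acta1, Actn2 and Myl4 are high on replicate 2, and mesothelial and matrix genes and Xist are high on replicate 1.

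Departures of at least 1 on the log2 scale from both other arrays were counted over all ranked genes, a measure chosen after the values were seen. Replicate 1 lay above both others in 123 genes (1.14%) and below both in 133 (1.23%). These counts were 11 and 37 without background correction and 50 and 74 with an offset of 50, so both their size and their balance depend on the background step. Replicate 2 lay above both others in 7 genes (0.0646%), and 5 of these are the muscle genes named above. Of the 4 ranked eosinophil list genes 3 were below on replicate 1. Of the 5 ranked mesothelium genes 3 were above on replicate 1: Upk3b (8.46, 7.12 and 6.87), Upk1b (6.98, 5.53 and 5.49) and Pdpn (7.57, 6.48 and 6.43), surface proteins of the lining cells of the liver. The probe of mesothelin, Msln, was not above background. The brightest mesothelium gene, Podxl, which blood vessels also express, read 9.23, 9.45 and 9.14 and showed no such departure. Of the 28 ranked matrix genes 4 were above on replicate 1, Lum (10.53, 9.09 and 9.16), Mgp (7.91, 6.17 and 5.84), Ogn and Col1a2, and 1 was below, Col18a1.

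Mean list levels moved in the same way. On replicate 1 the mean over ranked genes was 8.24 for eosinophils against 10.26 and 10.77, and 8.01 for mesothelium against 7.17 and 6.95. The erythroid factors were at 10.16 against 10.51 and 10.47, the apolipoproteins at 10.87 against 11.38 and 11.12, and matrix genes at 8.46 against 8.26 and 8.11. Over all ranked genes the mean was 8.55 on each array, which quantile normalization makes nearly equal by design. The part of mesothelial, matrix and eosinophil RNA in the other departures of replicate 1 was not tested.

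**Figure D5:**
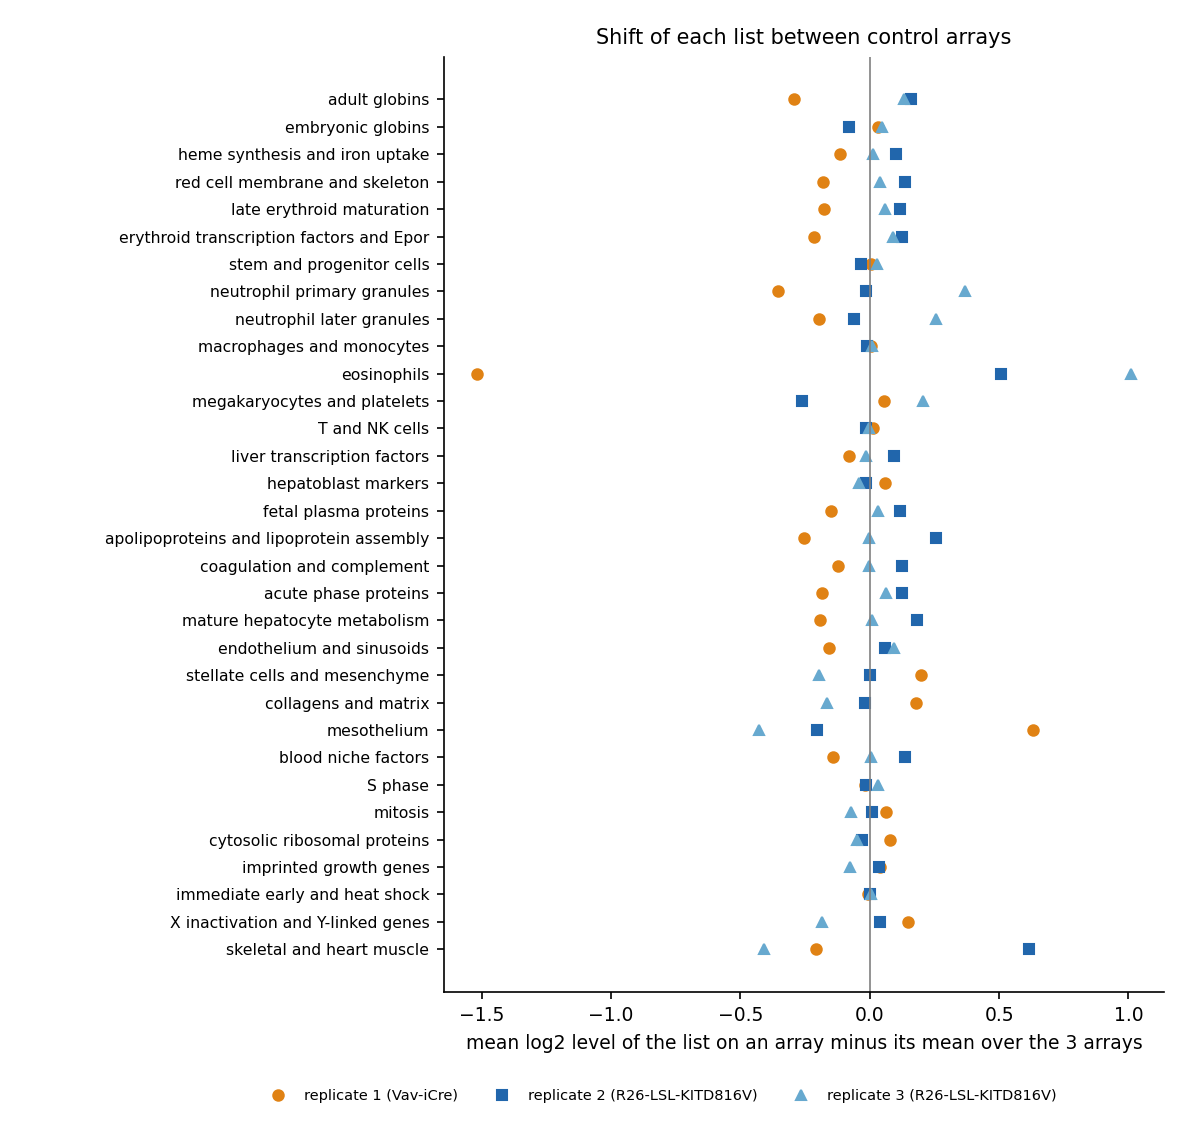
Mean log2 level of the ranked genes of each list on an array, minus the list's mean over the 3 arrays, for lists with at least 3 ranked genes; each point is 1 array. Replicate 1 lies lowest for eosinophils and highest for mesothelium, and replicate 2 lies highest for muscle.

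The sex-linked genes also set replicate 1 apart. The Y-linked genes Ddx3y (10.38, 10.18 and 10.22) and Eif2s3y (10.55, 10.04 and 9.82) were detected on all 3 arrays. The brightest probe of Xist, the RNA that silences an X chromosome in female cells, read 8.37 on replicate 1 and 4.83 and 4.61 on replicates 2 and 3. All 4 Xist probes were detected on replicate 1 and none on the others. RNA of both kinds was thus measured on replicate 1, and the labels give no sex and no number of embryos.

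Replicate 1, the lone Vav-iCre array, was also set against the 2 R26-LSL-KITD816V arrays with limma, with Benjamini-Hochberg adjustment over the 10834 genes. At an adjusted p below 0.05, 0 genes (0%) passed. The lowest adjusted p was 0.0659, shared by many genes, and 3890 genes had an unadjusted p below 0.05. With 1 residual degree of freedom this count was not stable. It rose from 0 with a trended, robust prior. With the main prior setting, it rose without background correction and on the authors' deposited values. The cause was not tested. In the fit over all 6 arrays 0 genes passed and 1096 had an unadjusted p below 0.05. Since genotype, embryo and chip position coincide here, these counts describe 1 array against the others and say nothing about a genotype difference.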

How the data were processed

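Total RNA of 3 control fetal liver samples was measured on Illumina bead arrays. The deposited table holds a signal intensity and a detection p-value for each of 45281 probes and array, on a linear scale without normalization, as the values show and per the file headers. A second table deposited by the authors holds intensity values, which differed from a quantile normalization of that signal by at most 0.303%. Per the submitters' processing notes, GenomeStudio was used. Its version and any earlier background step are not given in the sources used here.

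Background correction (neqc, negative controls inferred from the detection p, offset 16), quantile normalization over all 6 arrays and log2 were done with limma 3.58.1 in R 4.3.3. A gene took its brightest probe detected on all 3 control arrays. Of the 10834 ranked genes 3363 had several kept probes, with a median spread of 1.55 between them, and taking the brightest favours genes with more probes. Symbols were updated through a RefSeq table of GRCm38.p6: 27380 probes had a current symbol, 8359 were updated, 9417 kept the file's name and 125 whose name is an older name of several genes were left out. The number of arrays limits the precision.

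The members and the 38 gene lists were chosen with earlier results of these data known. Ahsp is listed under the file's name Eraf. Named were the 40 brightest named genes (by example), the given markers, up to 4 leading members and the lowest of each list. Also named were undetected defining markers and the 10 genes of largest SD, with predicted genes left out. Some genes that this rule takes are not reported here. Other genes named beside departures of 1 array were chosen after their values were seen. Replicate 1 was set against the other control genotype with lmFit and eBayes, two-sided, tested on simulated data first. Alternatives changed the background correction, offset, normalization, detection filter, probe rule and arrays.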

Additional observations from a re-analysis of the deposited data

How the results depend on the processing

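Blood list genes in the brightest 10% stayed within 1.5 times of 58 under every alternative run. Without a filter on dim probes 28821 genes were ranked, and their brightest 10% held 46 liver and 11 stromal list genes, being a larger set. With the mean of a gene's kept probes, 0 stromal list genes were in the brightest 10% in place of 3; Reln is a stromal gene whose probes disagree. Departures of replicate 1 by at least 1, recomputed after seeing the data, fell to 11 genes above and 37 below without background correction or on the authors' value table, and to 50 and 74 with an offset of 50, settings that compress differences of dim probes. The 7 genes above on replicate 2 became 11 with detection on 2 of 3 arrays and 15 without a filter. The count of genes called between replicate 1 and the arrays of the other genotype went from 0 to 3059 with a trended, robust prior, 2773 without background correction and 2776 on the authors' table, and the cause was not tested. It was 0 without control replicate 2 and without control replicate 3 in the 6-array fit. Per list and setting, 40 counts of bright genes moved by over 1.5 times and 392 did not, 113 list medians moved by over 1 SD between arrays and 271 did not, and 13 marker percentiles moved and 47 did not. No paired analysis was possible because the control genotypes share no replicate number. Genes near the upper limit of the signal have no reliable order, and a probe not above background gives no level.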
